A study of Homo sapiens with 4 samples.

Results

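The insulin-like growth factor (IGF) axis was examined in 2 ovarian cancer cell lines with and without TET1, through 10 genes listed by symbol: the binding protein genes IGFBP2, IGFBP3, IGFBP4, IGFBP5, IGFBP6 and IGFBP7, the receptor genes IGF1R, IGF2R and INSR, and the substrate gene IRS2. All 10 were found among the 26506 gene symbols of the expression tables. IGFBP2 was chosen by its relative change between TET1 and control, as the largest rise shared by both lines, and the others as its partners in the pathway. The IGFBP2 change is therefore a description of these libraries and was not tested. HeyC2 and SKOV3 cells were transfected with a pCMV6 plasmid carrying TET1 (labelled as TET1 overexpressed) or with the empty plasmid (the control, labelled as wild-type), and both were kept in Geneticin. TET1 encodes a dioxygenase that oxidizes 5-methylcytosine in DNA, a step of active demethylation. TET1 was driven by the CMV promoter of the plasmid and not by its own, and the labels do not say whether the selected cells were a pool or 1 clone. RNA was sequenced from 1 library per condition in each line, 4 in all, so no difference below has a replicate check and no p-value is given.

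IGF1 and IGF2 are secreted growth factors that signal through the receptor tyrosine kinase IGF1R, and insulin signals through the related INSR. Both receptors phosphorylate IRS1 and IRS2, which pass the signal to PI3K, AKT and mTOR. IGF2R carries no kinase and takes IGF2 into lysosomes for breakdown. The IGF binding proteins hold IGFs outside the cell, and proteases such as PAPPA and HTRA1 cut them and release the ligand. IGFBP2 also carries an integrin-binding RGD motif and is known in ovarian cancer as a protein that is often raised in tumor and serum.

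Values are FPKM, in which the sequenced fragments of a gene are scaled for the length of its transcript and the size of the library. The authors had brought GAPDH to equal FPKM within each line by raising every TET1 value by 1 constant. This constant was 3.23 for HeyC2 and 1.35 for SKOV3, and the values below were divided by it unless called deposited. The relative change of a gene is log2((TET1 + 1)/(control + 1)) minus the median of all genes with a mean of at least 1 FPKM in that line, which was 0.06 over 11894 genes in HeyC2 and 0.19 over 13013 genes in SKOV3. A gene was counted as higher or lower when it was at least 1.5-fold from that median, which is 0.58 on the log2 scale. The FPKM tables give no read totals, and the spacing of their smallest values put the depth at 6680000 to 7340000 fragments per library. Fragment numbers given for single genes are estimates from this depth and the length of the canonical transcript, and intervals made from them cover counting error only. Ratios and their intervals are TET1 over control before the all-gene median is taken off. Their point of no change therefore differs from that of the relative change, by 0.06 in HeyC2 and 0.19 in SKOV3 on the log2 scale.

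TET1 itself was at 0.20 FPKM in the HeyC2 control and 0.52 in HeyC2 TET1, and at 0.43 and 1.80 FPKM in the SKOV3 libraries. Only SKOV3 TET1 was thus above 1 FPKM, and in HeyC2 the gene did not pass the filter on low values. No fragment number was estimated for TET1. The overexpression is therefore taken from the labels, and these values show it weakly in HeyC2. The keratin genes KRT8 and KRT18 and the Müllerian transcription factor gene PAX8 were above 70 FPKM in all 4 libraries, with PAX8 between 74.6 and 195 FPKM. Other defining genes differed between the lines or were nearly absent. In HeyC2 control and TET1, CDH1 was listed at 0, EPCAM was at most 0.38 FPKM and KRT19 was at 0.62 and 1.59 FPKM. In the SKOV3 libraries CDH1 was at 2.24 and 6.30 FPKM and EPCAM at 15.4 and 16.1 FPKM. WT1 was listed at 0 in 3 libraries and was at 0.53 FPKM in SKOV3 TET1. MUC16 was at most 0.05 FPKM in all libraries. Of 4 leukocyte markers, CD3E was listed at 0 in all libraries and PTPRC was at most 0.28 FPKM, while CD68 lay between 12.7 and 90.2 FPKM. The summed level of the 4 was 56.3 and 90.2 FPKM in HeyC2 control and TET1 and 13.2 and 20.6 FPKM in the SKOV3 libraries. Of 3 endothelial markers, PECAM1 and VWF were at most 0.42 FPKM in all libraries, while CDH5 went from 18.9 to 94.6 FPKM in HeyC2, so that their sum was 19.4 and 94.8 FPKM in HeyC2 control and TET1 and at most 0.36 FPKM in SKOV3. The mesenchymal markers VIM, FN1 and CDH2 summed to 13080 and 5589 FPKM in HeyC2 control and TET1 and to 1277 and 908 FPKM in the SKOV3 libraries. In HeyC2, VIM went from 7496 to 2927 FPKM and FN1 from 5557 to 2619 FPKM, while CDH2 went from 26.9 to 43.2 FPKM. The simple keratin gene KRT19 went from 255 FPKM in the SKOV3 control to 0.46 in SKOV3 TET1. The part of these marker differences in the values below was not tested. In cultured cells, a higher level in every cell and a higher share of cells that use the gene cannot be told apart from bulk RNA.

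The promoters of 4 binding protein genes are shown first. IGFBP2 was higher with TET1 in both lines, and IGFBP5 is its neighbour. IGFBP3 and IGFBP4 were each the most abundant binding protein mRNA of 1 control library, a difference present without TET1. Whether the CG content of these promoters bears on the levels was not tested. Each line gives the 250 bases before the start of the canonical transcript, 5′ to 3′ on the strand of the gene, from RefSeq on GRCh38.p14, with every CG in capitals. The windows are chr2:216633170-216633419 on the plus strand for IGFBP2, chr2:216695550-216695799 on the minus strand for IGFBP5, chr7:45921273-45921522 on the minus strand for IGFBP3 and chr17:40443200-40443449 on the plus strand for IGFBP4.
IGFBP2: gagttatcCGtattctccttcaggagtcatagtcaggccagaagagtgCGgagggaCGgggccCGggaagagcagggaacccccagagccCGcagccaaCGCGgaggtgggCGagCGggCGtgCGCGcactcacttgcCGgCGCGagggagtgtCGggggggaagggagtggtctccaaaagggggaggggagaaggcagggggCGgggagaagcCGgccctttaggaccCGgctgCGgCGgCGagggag
IGFBP5: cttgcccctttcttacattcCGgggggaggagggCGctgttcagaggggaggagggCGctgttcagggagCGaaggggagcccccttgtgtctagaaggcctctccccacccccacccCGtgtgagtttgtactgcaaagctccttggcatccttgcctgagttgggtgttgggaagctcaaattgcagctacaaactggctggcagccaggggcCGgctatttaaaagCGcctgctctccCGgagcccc
IGFBP3: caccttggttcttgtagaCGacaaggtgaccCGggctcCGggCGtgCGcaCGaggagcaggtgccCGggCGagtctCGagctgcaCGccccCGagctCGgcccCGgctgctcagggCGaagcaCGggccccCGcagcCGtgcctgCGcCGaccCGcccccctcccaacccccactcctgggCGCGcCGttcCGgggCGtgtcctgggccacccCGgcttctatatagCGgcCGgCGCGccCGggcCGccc
IGFBP4: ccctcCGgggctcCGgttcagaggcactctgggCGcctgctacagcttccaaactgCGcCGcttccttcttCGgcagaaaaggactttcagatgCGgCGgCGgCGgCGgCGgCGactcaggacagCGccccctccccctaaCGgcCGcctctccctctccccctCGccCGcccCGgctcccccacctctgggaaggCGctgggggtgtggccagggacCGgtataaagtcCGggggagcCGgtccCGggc
The IGFBP2 window held 22 CG and 69.2% G or C, against a median of 11 CG over 35116 RefSeq promoter windows of the same length, and 28.0% of those windows held at least as many. CG reads the same on both strands, so 1 count serves both. The IGFBP5 window held 8 CG, which 56.3% of windows reached, that of IGFBP3 held 32 (9.52% of windows) and that of IGFBP4 held 24 (23.7%). RefSeq lists 2 further starts for IGFBP2, whose windows held 7 and 4 CG. Among the other genes of the axis the count was 9 CG for IGFBP6, 28 for INSR, 33 for IGF2R, 42 for IRS2 and 48 for IGF1R, the last reached by 0.26% of all windows. The receptor and substrate genes thus held 28 to 48 CG and the binding protein genes other than IGFBP7 held 8 to 32. IGFBP7, which was also higher with TET1 in both lines, had no promoter entry. DNA methylation was not analysed here.

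IGFBP2 lies on chromosome 2 (GRCh37, 217497551 to 217529159, plus strand) and its canonical transcript has 4 exons. Its level was 0.96 FPKM in the HeyC2 control and 111 FPKM in HeyC2 TET1, and it was 4.14 FPKM in the SKOV3 control and 78.5 FPKM in SKOV3 TET1. Both TET1 libraries were thus above both controls. As deposited, the TET1 values were 360 FPKM in HeyC2 and 106 FPKM in SKOV3. The difference between the lines was 1.39 on the log2 scale in the controls, with SKOV3 above HeyC2, and -0.50 in the TET1 libraries, with HeyC2 above SKOV3.

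The IGFBP2 level in HeyC2 rests on about 8.84 fragments in the control and 929 in TET1, a ratio of 116 with an exact 95% counting interval of 59.7 to 250. In SKOV3 it rests on about 36.7 and 647 fragments, a ratio of 19.0 with an interval of 13.5 to 26.9. The relative change was 5.78 in HeyC2, the second highest of 11894 genes, and 3.76 in SKOV3, the 19th highest of 13013 genes. These ranks depend on the pseudocount, since genes near 0 in the control move up when it is small, and reached 28 in HeyC2 and 155 in SKOV3 at a pseudocount of 0.01.

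Of 11134 genes with enough signal in both lines, IGFBP2 was first by the smaller of its relative changes and by their mean. The next genes by the smaller change were PPAN-P2RY11, a readthrough locus, with 2.48 in HeyC2 and 2.11 in SKOV3, and PLCB4, a phospholipase C gene, with 2.18 and 1.98. The gap in the smaller change between IGFBP2 and the next gene was from 3.76 to 2.11. The gene had been chosen for this place in the order.

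The genes whose levels were most like those of IGFBP2 were taken by the Euclidean distance of log2(FPKM + 1) over the 4 libraries, each gene centred on its own mean. The nearest were SSC4D at a distance of 2.48, PPAN-P2RY11 at 2.67, LBH at 2.75, RHPN1 at 2.89 and MARCKSL1 at 2.93. SSC4D was at 0.31 and 10.2 FPKM in HeyC2 control and TET1 and at 0.48 and 5.24 FPKM in the SKOV3 libraries. LBH, a transcription cofactor gene, was at 1.71 and 18.8 FPKM in HeyC2 and at 9.42 and 37.3 FPKM in SKOV3. Even the nearest gene was thus over 2 log2 units away from the IGFBP2 pattern. With 4 libraries, such likeness says only that the same libraries were high.

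**Figure D1:**
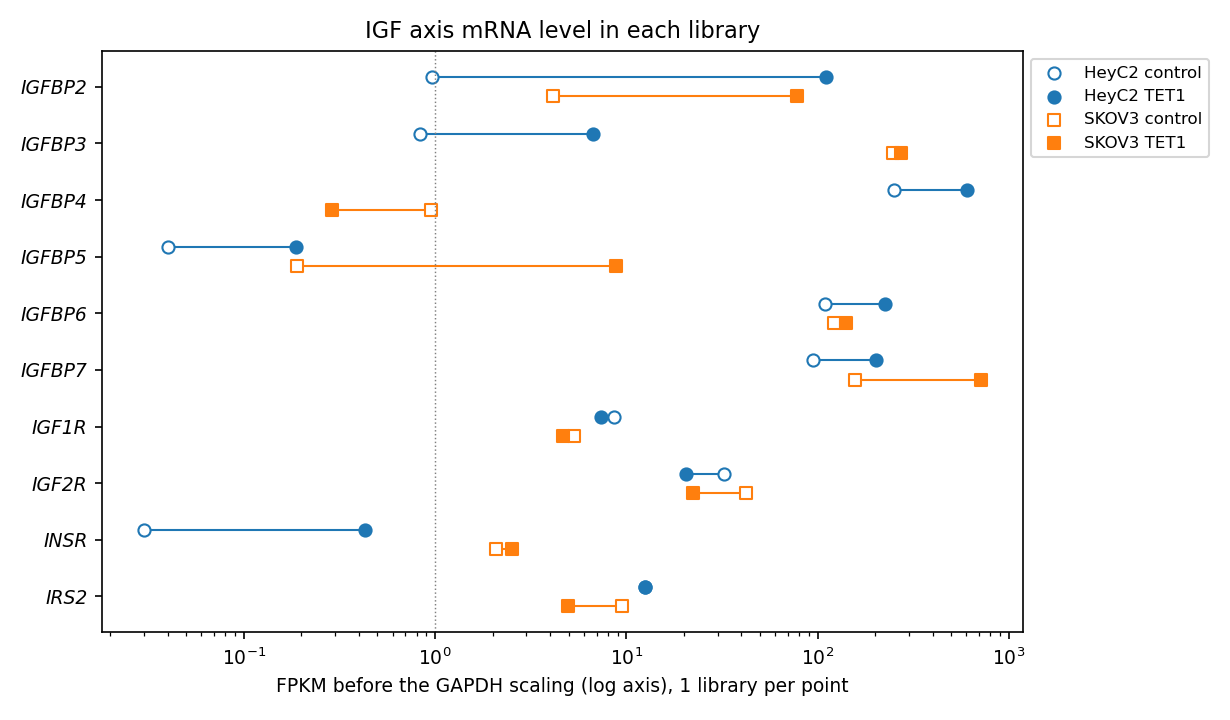
Level of the 10 IGF axis genes in each library, in FPKM before the GAPDH scaling on a log axis, with 1 point per library, open for control and filled for TET1, circles for HeyC2 and squares for SKOV3, and a dotted line at 1 FPKM. IGFBP2 moved from 0.96 to 111 FPKM in HeyC2 and from 4.14 to 78.5 FPKM in SKOV3, while IGFBP3 and IGFBP4 were high in opposite lines and IGF1R and IGF2R lay closer together.

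IGFBP5 lies next to IGFBP2 on chromosome 2 (GRCh37, 217536828 to 217560272, minus strand), and the ends of the genes face each other with 7668 bases between them. IGFBP5 is a binding protein that also attaches to extracellular matrix. Its level was 0.04 FPKM in the HeyC2 control and 0.19 FPKM in HeyC2 TET1, about 1.78 and 7.72 fragments, with a ratio of 4.71 and a counting interval of 0.87 to 42.1. In SKOV3 it was 0.19 FPKM in the control and 8.83 FPKM in TET1, about 8.27 and 357 fragments, with a ratio of 46.5 and an interval of 24.1 to 112. IGFBP5 was thus above 1 FPKM in 1 of the 4 libraries, SKOV3 TET1. Its relative change in SKOV3 was 2.85, and 4.73 and 5.25 with pseudocounts of 0.1 and 0.01, and in HeyC2 it did not pass the filter on low values.

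IGFBP7, a secreted protein with weak affinity for IGFs that is deposited in basement membranes, lies on chromosome 4 (57896939 to 57976551, minus strand). It was at 94.98 and 202 FPKM in HeyC2 control and TET1 and at 157 and 715 FPKM in the SKOV3 libraries. Each TET1 library was above both controls. The relative change was 1.02 in HeyC2 and 1.99 in SKOV3, and the counting intervals of the ratios were 1.96 to 2.31 and 4.31 to 4.84. IGFBP7 shares 386 bases with POLR2B on the other strand, which was at 26.4 and 24.6 FPKM in HeyC2 and 46.1 and 33.1 FPKM in SKOV3, and the sources used here do not say whether strand was used in counting. The antisense gene IGFBP7-AS1 was at most 0.22 FPKM.

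IGFBP3, the main carrier of IGFs in serum, lies on chromosome 7 (45951844 to 45961473, minus strand) and also faces a neighbour, IGFBP1, across 18584 bases. It was at 248 FPKM in the SKOV3 control and 273 FPKM in SKOV3 TET1, but at 0.83 FPKM in the HeyC2 control and 6.69 FPKM in HeyC2 TET1. The SKOV3 libraries were thus far above both HeyC2 libraries, and the controls differed by 7.09 on the log2 scale. In HeyC2 the relative change was 2.01, from about 14.9 to 110 fragments, with a ratio of 8.06 and an interval of 4.66 to 14.8. In SKOV3 the relative change was -0.05. IGFBP1, which the liver makes under the control of insulin, was at 0.18 and 0.70 FPKM in HeyC2 and at 3.33 and 0.71 FPKM in SKOV3, a relative change of -1.53 in SKOV3.

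IGFBP4, which binds IGFs and inhibits their action until PAPPA cuts it, lies on chromosome 17 (38599702 to 38613977, plus strand) and had the opposite distribution. It was at 252 FPKM in the HeyC2 control and 602 FPKM in HeyC2 TET1, but at 0.95 FPKM in the SKOV3 control and 0.29 FPKM in SKOV3 TET1. The controls differed by -7.02 on the log2 scale, SKOV3 minus HeyC2. The relative change in HeyC2 was 1.19, with a ratio of 2.39 and a counting interval of 2.29 to 2.48. In SKOV3 the gene rests on about 13.8 and 3.92 fragments, a ratio of 0.31 with an interval of 0.07 to 0.98, and it did not pass the filter.

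IGFBP6, a binding protein that prefers IGF2, lies on the long arm of chromosome 12 (53491220 to 53496129, plus strand). It was at 109 FPKM in the HeyC2 control and 225 FPKM in HeyC2 TET1, and at 122 FPKM in the SKOV3 control and 140 FPKM in SKOV3 TET1. The controls were close, and HeyC2 TET1 stood above the other 3 libraries. The relative change was 0.97 in HeyC2, with a ratio of 2.05 and a counting interval of 1.86 to 2.27, and 0.01 in SKOV3, with a ratio of 1.15 and an interval of 1.04 to 1.28.

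The ratio between binding protein genes within a library does not depend on how that library was scaled. The FPKM of IGFBP1 to IGFBP7 summed to 459 and 1147 in HeyC2 control and TET1, and to 534 and 1217 in the SKOV3 libraries. The sums with TET1 were 2.40 and 1.99 times those of the controls after division by the all-gene median change. In HeyC2 the share of IGFBP2 in the sum was 0.21% in the control and 9.70% with TET1. In SKOV3 it was 0.77% and 6.46%. IGFBP4 held 55.0% of the sum in the HeyC2 control and 52.5% with TET1, and at most 0.18% in the SKOV3 libraries. IGFBP3 held 46.3% in the SKOV3 control and 22.5% with TET1, and at most 0.58% in HeyC2. IGFBP7 went from 20.7% to 17.6% in HeyC2 and from 29.3% to 58.8% in SKOV3, where it became the most abundant binding protein mRNA.

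**Figure D2:**
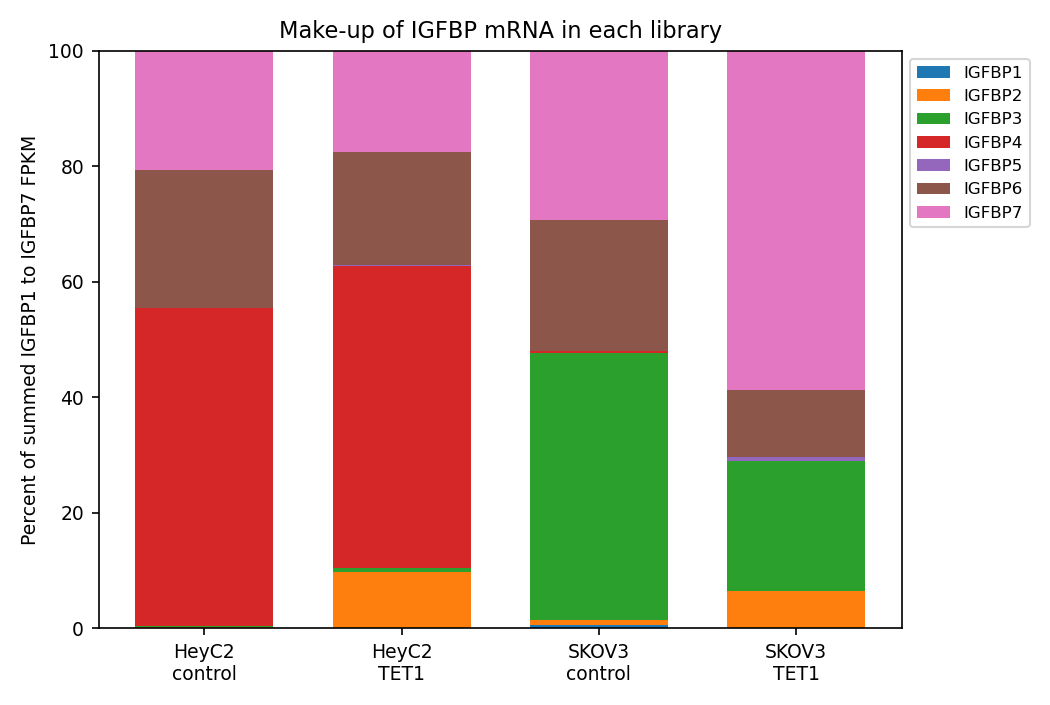
Share of each of IGFBP1 to IGFBP7 in their summed FPKM, in percent, with 1 bar per library. IGFBP4 takes 55.0% and 52.5% in the HeyC2 libraries and IGFBP3 46.3% and 22.5% in the SKOV3 libraries, and IGFBP2 appears in both TET1 libraries with 9.70% and 6.46%.

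IGF1R, the receptor for both IGFs, lies on chromosome 15 (99191768 to 99507759, plus strand). It was at 8.60 and 7.41 FPKM in HeyC2 control and TET1 and at 5.36 and 4.69 FPKM in the SKOV3 libraries. In each line the TET1 library was slightly below its control, with relative changes of -0.25 in HeyC2 and -0.35 in SKOV3, neither of which reached 1.5-fold. The counting interval of the ratio was 0.77 to 0.96 in HeyC2 and 0.76 to 1.01 in SKOV3.

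IGF2R lies on chromosome 6 (160390114 to 160534539, plus strand) and had the highest level of the 3 receptor genes in every library. It was at 32.3 FPKM in the HeyC2 control and 20.5 FPKM in HeyC2 TET1, and at 42.2 FPKM in the SKOV3 control and 22.3 FPKM in SKOV3 TET1. Both TET1 libraries were below both controls. The relative change was -0.69 in HeyC2 and -1.08 in SKOV3, with ratios of 0.64 (counting interval 0.60 to 0.67) and 0.53 (0.50 to 0.56). IGF2R was the only one of the 10 genes counted as lower in both lines, against 2.54% of the 11134 genes that passed in both. IGFBP5 and INSR in HeyC2 and IGFBP4 in SKOV3 did not pass the filter and could not be counted there. The ratio of IGF2R to IGF1R was 3.76 and 2.77 in HeyC2 control and TET1 and 7.86 and 4.75 in the SKOV3 libraries. The antisense gene AIRN, which overlaps IGF2R, was listed at 0 in all libraries.

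INSR, the insulin receptor, lies on chromosome 19 (7112266 to 7294425, minus strand). It was at 0.03 FPKM in the HeyC2 control, about 2.05 fragments, and 0.43 FPKM in HeyC2 TET1, about 27.0 fragments, a ratio of 14.3 with a counting interval of 3.69 to 127. It stayed under the filter in HeyC2, and its relative change there moved from 0.42 to 3.39 as the pseudocount went from 1 to 0.01. In SKOV3 it was at 2.09 and 2.53 FPKM, with a relative change of 0.00. IGF1R was above INSR in all 4 libraries, by 287 and 17.2 times in HeyC2 control and TET1 and by 2.56 and 1.86 times in the SKOV3 libraries.

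IRS2 lies on chromosome 13 (110405042 to 110438930, minus strand). It was at 12.5 FPKM in both HeyC2 libraries, with a relative change of -0.06. In SKOV3 it was at 9.53 FPKM in the control and 4.94 FPKM with TET1, a relative change of -1.02 with a ratio of 0.52 and a counting interval of 0.45 to 0.60. SKOV3 TET1 was thus the lowest of the 4 libraries. The related substrate gene IRS1 was at 16.2 and 16.8 FPKM in HeyC2 and at 6.61 and 7.41 FPKM in SKOV3. IRS1 was therefore 1.30 and 1.34 times IRS2 in HeyC2 control and TET1, and 0.69 and 1.499 times IRS2 in the SKOV3 libraries.

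Over the 10 genes, 8 passed the filter in HeyC2, where 5 were higher and 1 was lower, against 12.5% of all genes higher and 9.17% lower. The 5 were IGFBP2, IGFBP3, IGFBP4, IGFBP6 and IGFBP7. In SKOV3 9 passed, of which IGFBP2, IGFBP5 and IGFBP7 were higher and IGF2R and IRS2 lower, against 20.7% and 18.2% of all genes. IGFBP2 and IGFBP3 in HeyC2 and IGFBP5 in SKOV3 had controls under 1 FPKM and passed the filter through their TET1 library. The median relative change of those that passed was 0.997 in HeyC2 and 0.00 in SKOV3, where the median of all genes is 0 by construction. The genes were listed with these contrasts in view, so nothing is read from their counts.

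**Figure D3:**
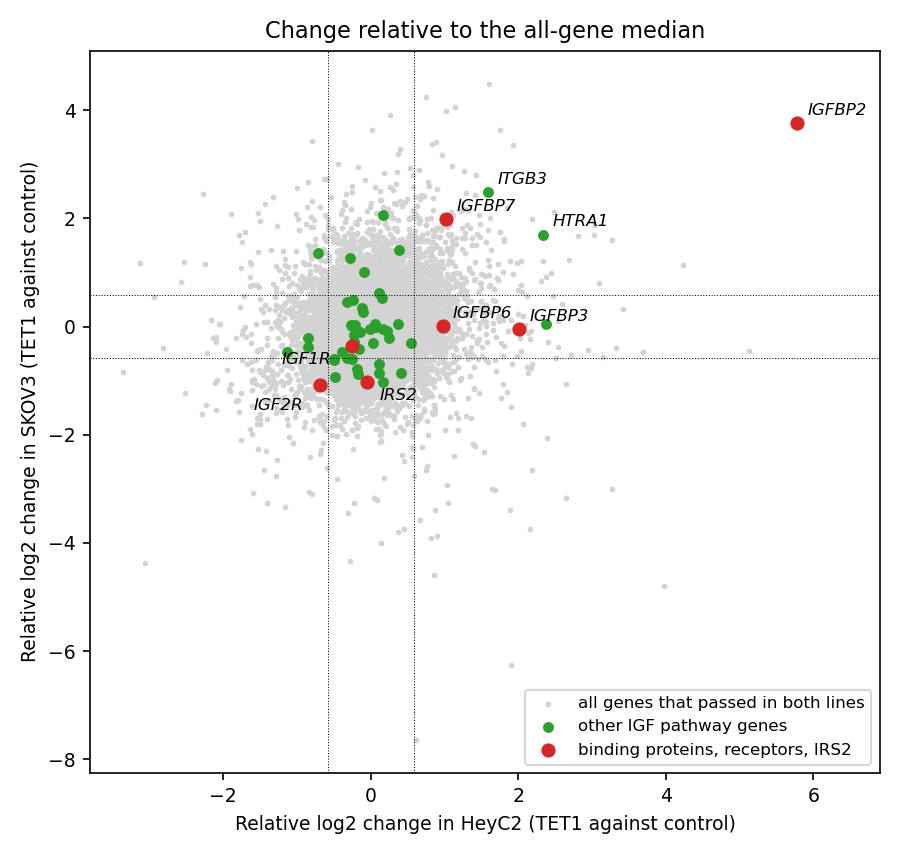
Relative log2 change between TET1 and control in HeyC2 (horizontal) and SKOV3 (vertical) for the 11134 genes that passed in both lines, with the IGF axis genes in red, other IGF pathway genes in green and dotted lines at 1.5-fold. IGFBP2 stands at 5.78 and 3.76, ITGB3 and HTRA1 lie in the upper right, and IGF2R is in the lower left at -0.69 and -1.08.

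The lines also differed in the axis without TET1. Between the controls, whose tables were deposited separately, 9 of the 10 genes had a mean of at least 1 FPKM, and IGFBP2, IGFBP3 and INSR were at least 2-fold higher in SKOV3 and IGFBP4 at least 2-fold lower. Over all 12488 genes that passed in this comparison, 24.0% were at least 2-fold higher and 13.9% at least 2-fold lower in SKOV3, and the median difference was 0.27. Each of these 4 genes was under 1 FPKM in 1 of the controls and passed through the other, so nothing is read from their count. The differences in IGFBP6, IGFBP7, IGF2R, IGF1R and IRS2 stayed between -0.59 and 0.72 on the log2 scale. In HeyC2 control the order of levels was IGFBP4, IGFBP6, IGFBP7, IGF2R, IRS2, IGF1R and then IGFBP2, IGFBP3, IGFBP5 and INSR, all under 1 FPKM. In the SKOV3 control it was IGFBP3, IGFBP7, IGFBP6, IGF2R, IRS2, IGF1R, IGFBP2, INSR, IGFBP4 and IGFBP5. With 1 library each, no spread is available to say which neighbours in these orders differ.

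A list of 64 further genes of the pathway was sorted into groups by role, and all 64 were found in the tables. In HeyC2 47 passed the filter, with 3 higher (6.38%, against 12.5% of all genes) and 4 lower (8.51%, against 9.17%), and the median relative change was -0.12. In SKOV3 51 passed, with 12 higher (23.5%, against 20.7%) and 11 lower (21.6%, against 18.2%), and the median was -0.04. STC1 in HeyC2 and IGFBPL1 and PTN in SKOV3 had controls under 1 FPKM and passed through their TET1 library, and IGFBP1 in SKOV3 passed through its control, so the counts are not read against the shares of all genes. Of the 45 genes of the list that passed in both lines, HTRA1 and ITGB3 were counted as higher in both and 0 as lower in both, against 3.56% and 2.54% of the 11134 genes that passed in both.

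Ligand transcripts were hardly seen. IGF1 and INS were listed at 0 in all 4 libraries. IGF2 was listed at 0 in 3 libraries and was at 1.07 FPKM, about 38.6 fragments, in SKOV3 TET1. Of 25 genes that all cells use, 0 were listed at 0 in any library. The other carriers of IGFs were also low: IGFALS, the acid-labile subunit of the serum complex, was at most 0.79 FPKM, and IGFBPL1 was listed at 0 in HeyC2 and was at 0.75 and 2.26 FPKM in SKOV3.

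Of the 10 genes for IGFBP proteases and their inhibitors, HTRA1, a secreted serine protease that cuts binding proteins, was higher in both lines. It was at 4.02 and 25.3 FPKM in HeyC2 control and TET1 and at 20.2 and 77.6 FPKM in the SKOV3 libraries, with relative changes of 2.33 and 1.70. STC1, an inhibitor of the pappalysin proteases, was listed at 0 in the HeyC2 control and was at 4.41 FPKM in HeyC2 TET1, about 110 fragments, while it was at 8.06 and 9.64 FPKM in SKOV3. The pappalysin genes PAPPA and PAPPA2 did not pass the filter in either line, with PAPPA2 at 1.69 and 0.17 FPKM in HeyC2 and listed at 0 in SKOV3. The lysosomal protease gene CTSD was lower in SKOV3, at 712 and 398 FPKM, with a relative change of -1.03.

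Downstream of the receptors, 0 of the 6 substrate and adaptor genes that passed were counted in either direction in HeyC2 or in SKOV3, with relative changes from -0.27 to 0.07 in HeyC2 and from -0.16 to 0.34 in SKOV3. The shares of all genes counted were 12.5% upward with 9.17% downward for HeyC2, and 20.7% with 18.2% for SKOV3. IRS2, which is counted with the 10 genes above and not in this group, was lower in SKOV3. Of the 7 genes grouped as regulators of receptor signaling, GRB10, GRB14 and SOCS2 were higher and PTPN1 was lower in SKOV3. SOCS2 went from 1.21 to 5.75 FPKM there, with a relative change of 1.42, and GRB10 from 3.59 to 11.7 FPKM, with 1.27. In HeyC2 only SOCS1 of this group was counted, at 17.2 and 7.62 FPKM with a relative change of -1.14.

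Among the PI3K and AKT genes, AKT1 was lower in SKOV3, from 136 to 85.8 FPKM with a relative change of -0.85, and it was at 62.1 and 69.9 FPKM in HeyC2. PIK3CD, a catalytic subunit, was higher in SKOV3, from 1.37 to 4.47 FPKM, and PIK3R1, a regulatory subunit, was lower in HeyC2, from 6.20 to 3.14 FPKM with a relative change of -0.86. AKT2 and PIK3CA were within 1.5-fold of the median in both lines. MTOR was lower in HeyC2, from 11.6 to 6.25 FPKM, and RHEB, its activator, was lower in SKOV3, from 61.5 to 40.4 FPKM. TSC1 and DEPTOR, which restrain mTOR, were higher in SKOV3, TSC1 from 5.06 to 9.59 FPKM with a relative change of 0.61 and DEPTOR from 2.57 to 5.17 FPKM with 0.60.

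Among the FOXO and GSK3 genes, FOXO4 was counted in opposite directions. It was at 10.7 and 6.40 FPKM in HeyC2 and at 3.15 and 11.1 FPKM in SKOV3, with relative changes of -0.72 and 1.36. FOXO1, FOXO3 and GSK3A were lower in SKOV3, with relative changes of -0.70, -0.59 and -0.61. Of the proteins that bind IGF2 mRNA, IGF2BP2 was at 117 and 111 FPKM in HeyC2 and at 29.1 and 31.1 FPKM in SKOV3, and IGF2BP3 was lower in SKOV3, from 5.16 to 2.67 FPKM.

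Of the cell-surface partners of IGFBP2, ITGB3, the integrin beta 3 subunit, was higher in both lines. It was at 99.0 and 311 FPKM in HeyC2 control and TET1 and at 6.71 and 48.5 FPKM in the SKOV3 libraries, with relative changes of 1.58 and 2.49. Its alpha partner ITGAV was at 25.03 and 22.0 FPKM in HeyC2 and at 26.0 and 42.3 FPKM in SKOV3, and ITGA5 and ITGB1, the fibronectin receptor, stayed within 1.5-fold of the median in both lines. The phosphatase receptor gene PTPRZ1 did not pass the filter in either line. Its ligand PTN, also pleiotrophin, was higher in SKOV3, from 0.41 to 4.37 FPKM, about 3.83 and 38.0 fragments.

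**Figure D4:**
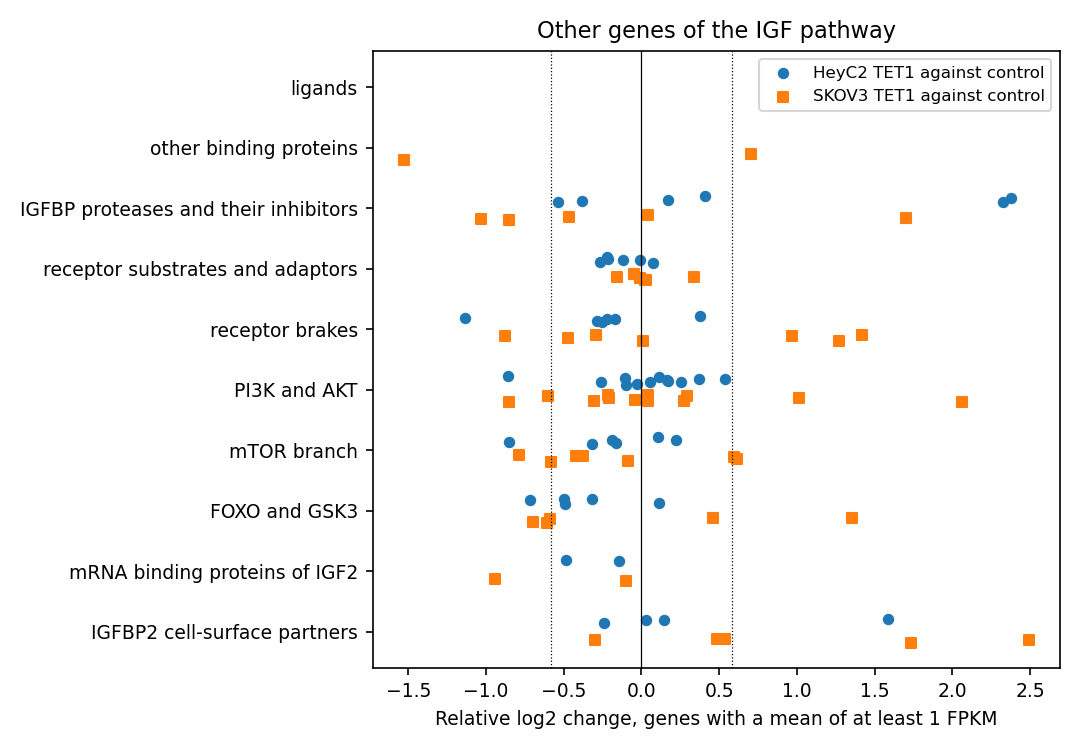
Relative log2 change of the other IGF pathway genes that passed the filter, by group, with circles for HeyC2 and squares for SKOV3, 1 point per gene, and dotted lines at 1.5-fold. No ligand gene passed, substrates and adaptors lie between -0.27 and 0.34 in both lines, and 12 and 11 of the SKOV3 points lie beyond the upper and lower lines, against 3 and 4 of the HeyC2 points.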

How the data were processed

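RNA-seq of HeyC2 and SKOV3 cells was used, with 1 TET1 and 1 control library per line. Per the labels, paired-end TruSeq reads were aligned to hg19 with Bowtie2 2.2.6, and the deposited values are FPKM that the authors computed with RSEM 1.2.17. The annotation and any filter are not given in the sources used here. From the values, the authors then multiplied each TET1 column by 1 constant so that GAPDH equalled its control. The constant was recovered as the widest grid (steps of 0.01 FPKM before scaling) that held 100% of the distinct values below 40 FPKM, and was divided out.

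Changes were log2 FPKM ratios with a pseudocount of 1, minus the median over genes with a mean of at least 1 FPKM, and genes at least 1.5-fold from it were counted. The pseudocount understates changes of low genes. Depth was estimated from low FPKM of genes with 1 GENCODE transcript (273, 270, 307 and 319 genes in HeyC2 control and TET1 and SKOV3 control and TET1), and intervals are exact binomial (95%) on fragments estimated from it, rounded, for the FPKM ratio. RSEM's own transcript lengths are not known here, so fragment numbers are approximate. Gene coordinates are GENCODE on GRCh37, the build of hg19, and promoters RefSeq on GRCh38.p14. There 9 of the 10 genes had an entry and IGFBP7 had none. The calculations were tested on simulated data.

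Genes named were the 10, the fixed pathway list with at most 4 examples per group, the 5 genes nearest to IGFBP2, its neighbours in the ranking, and checks. IRS1 beside IRS2, and genes that overlap the 10, were added after their values were seen. Some genes of the list are not reported here by name. The genes, the lists and the tests were chosen with earlier results of these data known. Alternatives were pseudocounts of 0.1 and 0.01, no filter, a mean of at least 5 FPKM, FPKM as deposited, TPM, upper-quartile scaling and thresholds of 2-fold and 1.2-fold. Leaving IGFBP7 out of the IGFBP sum was added after the data were seen. Python 3.11.15 with numpy 2.4.6, pandas 2.3.3, scipy 1.17.1 and matplotlib 3.10.9 was used.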

Additional observations from a re-analysis of the deposited data

Results flagged for a closer look

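FOXO4, a transcription factor gene that AKT holds out of the nucleus, was singled out because it was beyond 1.5-fold in HeyC2 and SKOV3 on opposite sides of the all-gene median, with a relative change of -0.72 in HeyC2 and 1.36 in SKOV3. It rests on about 273 and 150 fragments in HeyC2 control and TET1 and about 78.3 and 258 fragments in the SKOV3 libraries. The difference between the lines was not tested, since each condition has 1 library.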

How the results depend on the processing

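No paired analysis was possible because the labels give no replicate numbers and each condition has 1 library. The relative change of IGFBP2 stayed positive under all settings, and was 6.65 and 6.78 in HeyC2 with pseudocounts of 0.1 and 0.01, against 5.78. In SKOV3 it lay between 3.76 and 4.03. The range over settings was 2.01 to 2.93 for IGFBP3, 1.18 to 1.33 for IGFBP4, 0.96 to 1.11 for IGFBP6 and 1.01 to 1.16 for IGFBP7 in HeyC2, and 2.85 to 5.25 for IGFBP5, 1.96 to 2.09 for IGFBP7 and -1.13 to -0.99 for IGF2R in SKOV3. IGFBP5 and INSR in HeyC2, both under the filter, turned from 0.13 and 0.42 to -0.98 and -0.39 with FPKM as deposited, where the pseudocount weighs unequally on the libraries. At 2-fold, 0 of the 10 genes were lower in HeyC2. Of the 64 pathway genes in HeyC2, the number lower was 8 with FPKM as deposited, with no filter and with TPM, 1 at 2-fold and 13 at 1.2-fold, against 4, and the number higher was 5 with TPM and 7 at 1.2-fold, against 3. In SKOV3, a mean of at least 5 FPKM gave 7 higher and 6 lower, against 12 and 11, since fewer genes were tested, and the number lower was 2 at 2-fold and 19 at 1.2-fold. Leaving IGFBP7 out of the sum, a setting added after the data were seen, raised the IGFBP2 share in SKOV3 TET1 from 6.46% to 15.7%. Where no reason is given, the cause was not tested. Genes under 1 FPKM rest on few fragments at this depth, and 1 library per condition leaves the spread between cultures unknown.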
